A study of Mus musculus with 11 samples.

Results

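The cytosolic ribosomal protein genes were examined in RNA from mouse gastrocnemius muscle. The members were the protein-coding genes with a symbol of the form Rpl or Rps followed by a number, with or without a final a or x, together with Rplp0, Rplp1, Rplp2 and Rpsa. This rule took 76 of the 55487 genes in the count tables, 46 of the large subunit and 30 of the small subunit, spread over 19 chromosomes. The libraries came from 4 wild-type mice, 3 mice labelled Raptor knock-out and 4 mice labelled Raptor mTOR double knock-out, here called WT1 to WT4, KO1 to KO3 and DKO1 to DKO4, with the replicate numbers given in accession order. Raptor knockout mice carried Raptor fl/fl and a Cre recombinase under the human skeletal actin (HSA) promoter, which works only once tamoxifen binds its mutated oestrogen receptor domain; the double knockout mice carried mTOR fl/fl as well. All mice, wild type included, are labelled as given tamoxifen, started at 3 months of age. The chow was fed for 7 weeks and the muscles were taken 7 months after its start. The actin promoter is active in muscle fibres, so other cells of the muscle, such as macrophages and fibroblasts, lie outside the intended deletion. The sources used here do not give whether the wild-type mice carried Cre or floxed alleles, nor whether animals were pooled.

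A cytosolic ribosome has a large (60S) subunit, which joins amino acids, and a small (40S) subunit, which reads the mRNA; each ribosomal protein occurs in most ribosomes as a single copy, and the stalk proteins in several. mTORC1, the kinase complex of mTOR and Raptor, promotes the making of ribosomes: it activates S6 kinase, which phosphorylates the small-subunit protein encoded by Rps6, and it inactivates the translational repressors 4E-BP and LARP1. Ribosomal protein mRNAs start with a cytosine followed by a run of pyrimidines, the 5′ terminal oligopyrimidine (TOP) tract, through which mTORC1 controls their translation and LARP1 their stability.

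Runs of this kind were looked for around the start sites, and were found unevenly among the members that the results turn on. Windows of 30 bases, from 10 bases before the annotated RefSeq start (mouse build GRCm38.p6), are printed 5′ to 3′ with the longest run of a C followed by at least 4 pyrimidines (C or T) on the sense strand in capitals. The first 6 belong to members that rose by more than most others in a knockout, the next 4 to members that rose by less or did not pass the test, and the last encodes the S6 kinase substrate.
Rpl23: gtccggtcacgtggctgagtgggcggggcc
Rpl39: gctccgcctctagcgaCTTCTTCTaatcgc
Rpl36a: cccaggcaccgcctataaaCTTCCgttgcg
Rpl12: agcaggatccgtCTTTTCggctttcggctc
Rps7: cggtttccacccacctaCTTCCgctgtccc
Rps28: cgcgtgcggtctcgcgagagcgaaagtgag
Rpl15: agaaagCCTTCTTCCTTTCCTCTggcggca
Rpl9: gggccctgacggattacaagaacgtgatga
Rps2: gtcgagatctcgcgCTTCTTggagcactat
Rps3: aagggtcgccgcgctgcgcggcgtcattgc
Rps6: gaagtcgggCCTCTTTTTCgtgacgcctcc
The Rpl23 window lies at chr11:97782420-97782449 on the minus strand, that of Rps2 at chr17:24720053-24720082 on the plus strand and that of Rpl15 at chr14:18270967-18270996 on the minus strand. The remaining windows lie at chr2:32961702-32961731 (Rpl12, plus strand) and, on the minus strand, at chr12:28635934-28635963 (Rps7), chr17:33824543-33824572 (Rps28), chr5:65391412-65391441 (Rpl9), chr7:99483690-99483719 (Rps3) and chr4:86857348-86857377 (Rps6). The windows of Rpl39 and Rpl36a lie on the X chromosome, at chrX:37085203-37085232 on the minus strand and chrX:134585644-134585673 on the plus strand. Of the 76 members, 56 had a start in the RefSeq table, and 37 of those (66.1%) held a tract of a C and at least 4 pyrimidines, against 39.6% of all 27025 genes in the table. A C followed by at least 7 pyrimidines was in 23 members (41.1%) and in 10.1% of all genes. Both subunits were alike in this, with 64.7% of 34 large-subunit and 68.2% of 22 small-subunit members holding the shorter tract. Rpl23, which rose strongly, had no such tract in its window, and Rpl15, which lagged, had a run of 17 bases. Rps20 and Rpl3 had no start in the RefSeq table. The run could lie anywhere in the window, and began 9 bases after the annotated start in Rpl36a, 7 in Rps7 and 6 in Rpl39. A run in capitals is therefore not always the TOP tract at the start of the mRNA. A start site that is annotated a few bases off moves the tract out of such a window, so a missing match says only that these letters are not there.

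The libraries held 2791355 to 6328543 counts each, all from 3′ ends of mRNA. DKO3 and DKO4 came from another, smaller sequencing run than the other 9 libraries. The leading numbers of the sample titles form a lower series, with KO1 to KO3, WT1 and WT2, and a higher series, with DKO1 to DKO4, WT3 and WT4. What these numbers stand for is not given. Rptor, the gene of Raptor, was at 8.52 to 10.5 CPM (counts scaled to a common library size) in wild type, 3.83 to 4.97 in the Raptor knockout and 4.05 to 5.35 in the double knockout, a log2 fold change against wild type of -1.11 (SE 0.23, adjusted p = 0.00281, edgeR) and -1.02 (SE 0.21, adjusted p = 0.00156, edgeR). Mtor was at 15.1 to 28.0 CPM in wild type, 18.1 to 22.5 in the Raptor knockout and 31.6 to 39.3 in the double knockout, so its tag was higher where the label says that the gene was deleted (log2 0.78, SE 0.18, adjusted p = 0.00533, edgeR). A 3′ tag outside the deleted exons does not report the deletion, and those exons are not given in the sources used here. The 10 markers of mature fibres were all detected, with summed levels of 115600 to 121115 CPM in wild type, 99255 to 110286 in the Raptor knockout and 98849 to 118365 in the double knockout. In each knockout 4 of them were called lower and 2 higher (adjusted p under 0.05, edgeR). Of all tested genes, 13.7% were called lower and 13.0% higher in the double knockout, and 9.42% and 8.73% in the Raptor knockout. The long non-coding RNA Xist, made in cells with more than 1 X chromosome, was above 10 CPM in WT3, DKO1, DKO2 and DKO3, so no Raptor knockout library had it. WT4 stood apart among the wild-type libraries in how its ribosomal protein counts were divided: over the 47 members with few counts in near-identical copies, the log2 shares of the class scattered around the wild-type mean with an SD of 0.212, against 0.073 to 0.091 in WT1 to WT3 and 0.196 to 0.234 in the knockout libraries. WT4 was also apart in its share of counts from mt-Rnr2, the large rRNA of mitochondria, at 0.419%, against 2.394% to 3.285% in WT1 to WT3, 0.329% to 2.289% in the Raptor knockout and 0.525% to 1.912% in the double knockout. With the mt-Rnr2 share as a covariate, an alternative chosen after seeing the data, 60 members were called higher in the Raptor knockout (median log2 0.64) and 73 in the double knockout (median 0.92).

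Ribosomal protein mRNA as a class took a larger part of the muscle transcriptome in both knockouts. The 76 genes together held 2.36%, 2.23%, 2.87% and 2.53% of all counts in WT1 to WT4. In KO1 to KO3 they held 4.64%, 4.43% and 4.82%. In DKO1 to DKO4 they held 5.94%, 6.09%, 5.10% and 5.19%. The 3 genotypes did not overlap: every Raptor knockout library lay above every wild-type library, and every double knockout library above every Raptor knockout library. The double knockout libraries of the smaller run, at 5.10% and 5.19%, were lower than those of the larger run, at 5.94% and 6.09%, and lay above the Raptor knockout libraries too; no other genotype was in the smaller run. After TMM scaling, the summed level was 27436 ± 2318 CPM (SD, n = 4) in wild type, 44405 ± 1073 (SD, n = 3) in the Raptor knockout and 52243 ± 3960 (SD, n = 4) in the double knockout. That is 1.62 times the wild-type level in the Raptor knockout and 1.90 times in the double knockout. Both ratios use the mean of all 4 wild-type libraries. WT1 and WT2, in the title series of the Raptor knockout, were at 26144 and 24844 CPM. WT3 and WT4, in that of the double knockout, were higher, at 29686 and 29071 CPM. The step from the Raptor to the double knockout is therefore confounded with the title series. In bulk muscle, more cells rich in ribosomal protein mRNA and more such mRNA per cell cannot be told apart.

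**Figure D1:**
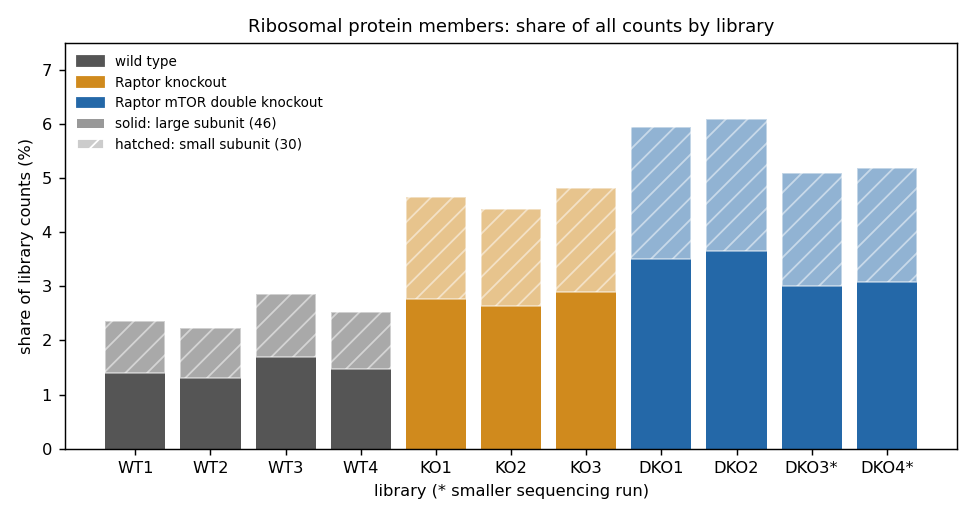
Share of all counts held by the 76 ribosomal protein genes in each library, in percent; solid bars are the large subunit, hatched bars stacked on them the small subunit, and colours the genotypes. The wild-type libraries reach 2.23% to 2.87%, the Raptor knockout 4.43% to 4.82% and the double knockout 5.10% to 6.09%; asterisks mark the 2 libraries of the smaller run.

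Some lists of cell-type markers moved along with the class, and others did not. Of all tested genes, 13.0% were called higher in the double knockout and 8.73% in the Raptor knockout. The summed level of 9 genes of regenerating fibres, among them the embryonic myosin Myh3, was 40.2 to 53.4 CPM in wild type, 304 to 383 in the Raptor knockout and 523 to 591 in the double knockout, and all 6 that could be tested were called higher in each knockout. Fibro-adipogenic cell markers summed to 1059 to 1697 CPM in wild type, 1831 to 1944 in the Raptor knockout and 2049 to 2301 in the double knockout; 10 of 12 were called higher in the double knockout and 4 in the Raptor knockout. Macrophage markers summed to 88.2 to 158, 139 to 289 and 191 to 257 CPM in the same order, with 8 of 13 tested called higher in the double knockout and 5 in the Raptor knockout. Tenocyte markers summed to 93.2 to 121, 181 to 241 and 191 to 272 CPM, with 3 of 4 tested called higher in each knockout. The satellite cell list, which includes Des, a gene of muscle fibres as well, summed to 2395 to 2793, 3351 to 3706 and 3597 to 3764 CPM. Of its genes, 1 of 3 tested was called higher in each knockout. The median log2 fold changes of the tested genes were 0.47 (Raptor knockout) and 0.01 (double knockout). The sum thus does not stand for satellite cells alone. Endothelial markers overlapped between all genotypes, at 202 to 300, 207 to 251 and 201 to 241 CPM, and none of 10 was called. The summed levels of Schwann cell, erythroid and neutrophil, T and B cell markers overlapped between all genotypes too. Adipocyte markers overlapped wild type in both knockouts, at 5132 to 11725, 5106 to 7008 and 8223 to 9671 CPM, and lay higher in the double than in the Raptor knockout. Mural cell markers, at 187 to 215, 222 to 265 and 208 to 280 CPM, lay above wild type in the Raptor knockout and overlapped it in the double knockout. Cd3g, a T cell gene, was at 0 in every library, and no other marker on these lists was at 0 throughout. The part of these cells in the ribosomal protein levels was not tested.

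Against wild type, 72 of the 76 members rose in the double knockout and none fell, where 13.0% of all 10505 tested genes were called higher (edgeR quasi-likelihood test, adjusted p under 0.05). All 76 members passed the filter on low counts. Their median log2 fold change was 0.94, against 0.02 over all tested genes, and 72 members had every double knockout library above every wild-type library, as did 13.1% of all genes. The 4 members that did not pass the test were Rps2, Rps27, Rpl9 and Rpl10. In the Raptor knockout 65 members rose and none fell, with 8.73% of all genes called higher; the median log2 fold change was 0.69, against 0.00 over all genes, and 69 members had all Raptor knockout libraries above wild type, as did 14.0% of all genes. Both comparisons use the same 4 wild-type libraries. All 65 members called in the Raptor knockout were also called in the double knockout, and 7 more were called in the double knockout. Among the 11 not called in the Raptor knockout were Rpl5, Rpl8, Rpl9, Rpl10, Rpl15, Rps2, Rps3 and Rps27 and, named here after their values were seen, Rpl41 and Rps14. Nothing in the labels says whether libraries of a genotype shared a litter or an extraction, so these p-values measure the spread between these libraries.

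**Figure D2:**
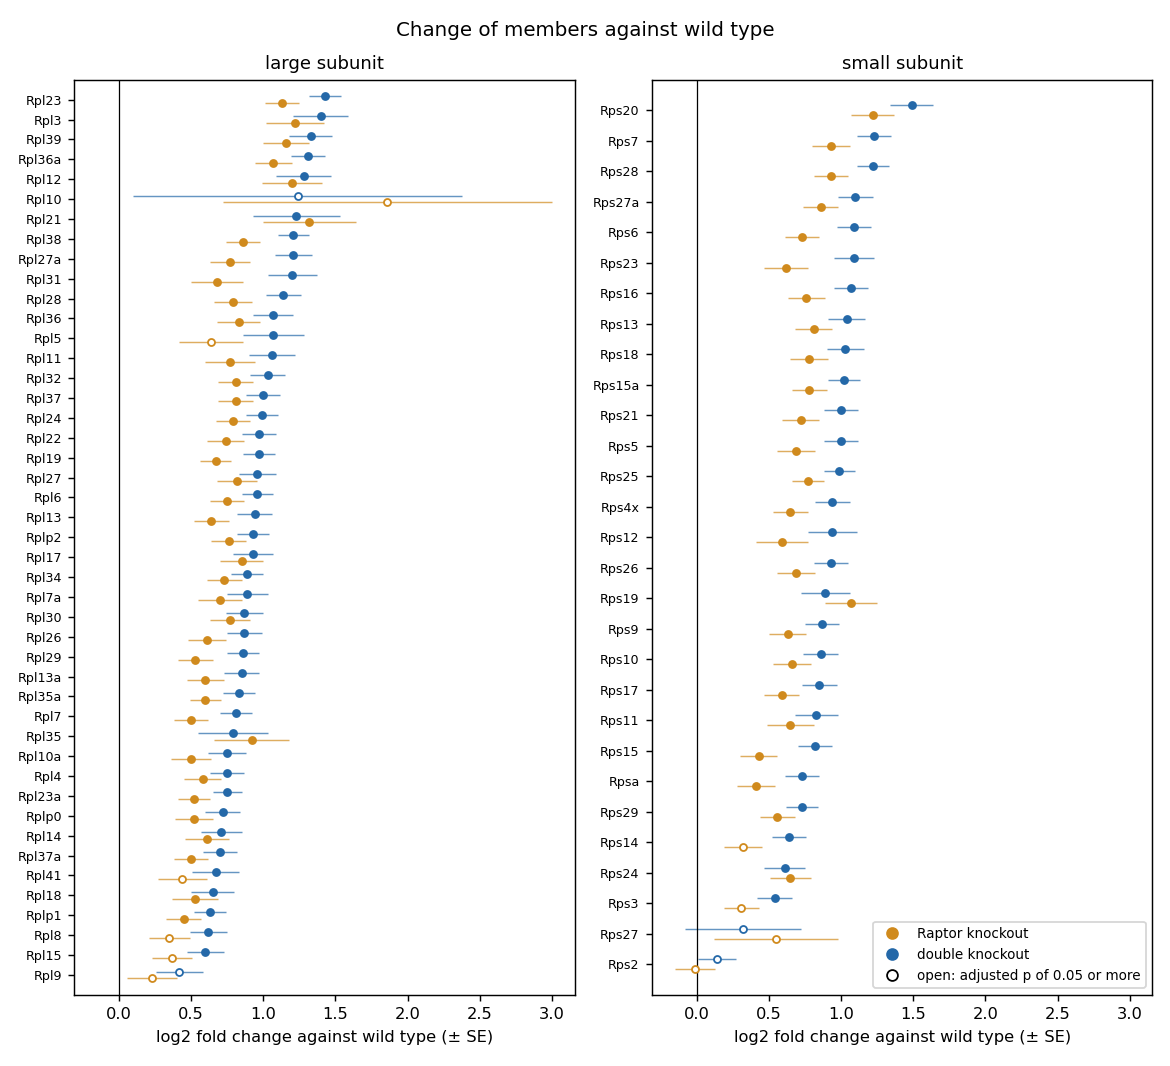
Log2 fold change against wild type of the members shown, with the SE from the edgeR fit, for the Raptor knockout (orange) and the double knockout (blue); open points did not reach an adjusted p under 0.05. Nearly all points lie right of 0, with medians of 0.69 and 0.94 over all 76 members; Rps2 lies nearest to 0 and Rpl10, with 111.7 counts in all libraries together, has the widest error.

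The large and the small subunit rose by similar amounts, a comparison made without a test. In the double knockout 44 of 46 large-subunit members and 28 of 30 small-subunit members were called higher, each with a median log2 fold change of 0.94. In the Raptor knockout 40 of 46 and 25 of 30 were called higher, with medians of 0.74 and 0.65. The summed large-subunit level was 16162 ± 1358 CPM (SD, n = 4) in wild type, 26469 ± 754 (SD, n = 3) in the Raptor knockout and 30955 ± 2566 (SD, n = 4) in the double knockout, 1.64 and 1.92 times the wild-type level. The summed small-subunit level was 11275 ± 982 CPM (SD, n = 4), 17935 ± 339 (SD, n = 3) and 21288 ± 1402 (SD, n = 4), 1.59 and 1.89 times the wild-type level. The ratio of the large-subunit sum to the small-subunit sum was 1.464, 1.422, 1.457 and 1.393 in WT1 to WT4. It was 1.464, 1.465 and 1.499 in KO1 to KO3, and 1.434, 1.492, 1.433 and 1.454 in DKO1 to DKO4. The double knockout libraries fell partly within the wild-type range, while the lowest Raptor knockout library was level with the highest of wild type. With the counts of near-identical copies added, an alternative chosen after seeing the data, the ratio was 1.417 to 1.451 in wild type, 1.484 to 1.502 in the Raptor knockout and 1.453 to 1.507 in the double knockout. On the deposited TPM it was 1.313 to 1.358, 1.363 to 1.417 and 1.362 to 1.405. Both ways every knockout library lay above every wild-type library, unlike in the counts of the members alone, and by small margins. Being a ratio of tag counts over unequal sets of genes, it does not give the number of subunits.

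Within the large subunit, the 5S RNP members Rpl5 and Rpl11 encode proteins that carry 5S rRNA into the ribosome and, when free, bind the p53 regulator MDM2. Rpl11 was at 294, 283, 360 and 496 CPM in WT1 to WT4, at 599, 584 and 646 in the Raptor knockout and at 763, 817, 666 and 740 in the double knockout. Every knockout library lay above every wild-type library, and the log2 fold changes were 0.77 (SE 0.17, adjusted p = 0.00452, edgeR) and 1.06 (SE 0.16, adjusted p = 0.000122, edgeR). Rpl5 was at 327, 301, 413 and 685 CPM in WT1 to WT4, at 654, 653 and 710 in the Raptor knockout and at 982, 940, 778 and 915 in the double knockout. WT4 overlapped the Raptor knockout libraries here, and the call in the Raptor knockout missed the threshold (log2 0.64, SE 0.22, adjusted p = 0.0582, edgeR), whereas without WT4 it passed with a log2 fold change of 0.95. In the double knockout Rpl5 rose by a log2 fold change of 1.07 (SE 0.21, adjusted p = 0.00156, edgeR).

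The stalk, which recruits the GTPases of elongation, is built on Rplp0 from Rplp1 and Rplp2, and Rpl12 lies at its base; all 4 rose in both knockouts, with log2 fold changes of 0.63 to 1.28 in the double knockout. Rplp0 was at 460, 411, 528 and 550 CPM in wild type, 710, 673 and 715 in the Raptor knockout and 847, 879, 741 and 738 in the double knockout. Rplp1 was at 888, 870, 1024 and 1033 CPM in wild type, 1288, 1241 and 1389 in the Raptor knockout and 1433, 1629, 1421 and 1407 in the double knockout. Rplp2 was at 674, 647, 781 and 813 CPM in wild type, 1230, 1215 and 1256 in the Raptor knockout and 1408, 1456, 1336 and 1364 in the double knockout. In each of these 3 genes the double knockout libraries lay above the Raptor knockout libraries, and those above wild type. The log2 fold changes in the double knockout were 0.72 for Rplp0 (SE 0.12), 0.63 for Rplp1 (SE 0.11) and 0.93 for Rplp2 (SE 0.11), and in the Raptor knockout 0.52, 0.45 and 0.76. Rpl12, with 91.41% of its family counts in near-identical copies, was at 15.1 to 27.7 CPM in wild type, 44.7 to 53.5 in the Raptor knockout and 39.3 to 63.8 in the double knockout, with no overlap with wild type, and its log2 fold changes were 1.20 (SE 0.21) and 1.28 (SE 0.19). The 8 members that line or surround the exit of the peptide tunnel, such as Rpl39, were all called higher in both knockouts, with medians of 0.68 and 0.90.

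Within the small subunit, all 14 members of the 40S head were called higher in the double knockout (median log2 0.97) and 13 in the Raptor knockout (median 0.72), and 14 and 12 of the 16 members of the body and platform (medians 0.90 and 0.65). Rps6, the substrate of S6 kinase, was at 326, 339, 381 and 410 CPM in wild type, 640, 586 and 585 in the Raptor knockout and 851, 802, 699 and 741 in the double knockout. Its mRNA moved with the class, with no overlap between genotypes and log2 fold changes of 0.73 (SE 0.12, adjusted p = 0.000707, edgeR) and 1.09 (SE 0.12, adjusted p = 6.78e-06, edgeR). On a list of 9 of the members known to be mutated in Diamond-Blackfan anaemia, an inherited failure of red cell production, 9 were called higher in the double knockout (median 0.89) and 8 in the Raptor knockout (median 0.66); the list leaves out other such genes, among them Rps27.

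Some members changed by another amount than the class. For this the summed member count of each library took the place of the library size, so that a value of 0 means a change equal to that of the class. By this test 10 members lay above the class and 8 below it in the double knockout, and 6 above and 8 below in the Raptor knockout. Of all tested genes 1.75% lay above and 69.8% below the class in the double knockout, and 1.85% above and 53.0% below in the Raptor knockout. With so many genes called, the adjustment over all of them let members pass at unadjusted p-values of up to 0.0358 and 0.0274. Above the class in both knockouts were Rps20, Rpl23, Rpl3, Rpl39 and Rpl36a, and among those below it in both were Rps2, Rpl9, Rps3, Rpl15 and Rpl8. Between the subunits the departures were divided as 7 large and 3 small above and 5 large and 3 small below in the double knockout, and as 5 large and 1 small above and 3 large and 5 small below in the Raptor knockout. Among those passing in 1 of the knockouts were Rps7, Rps28, Rpl38 and Rpl27a above and Rplp1 and Rpl18 below the class in the double knockout, and Rpl12 above and Rps14 and Rpsa below it in the Raptor knockout; in the direct comparison of the knockouts, given later, no member departed. With the counts of near-identical copies added, an alternative chosen after seeing the data, Rpl38, Rpl27a and Rpl18 did not depart in the double knockout, nor Rpsa in the Raptor knockout. Rpl12 then lay above the class in both knockouts, and the members named above for both knockouts still departed in both. Leaving out WT4 raised the number of departing members in the double knockout from 18 to 29, while leaving out KO1, KO2 or KO3 lowered that in the Raptor knockout from 14 to 7, 8 or 6. Rps20 and Rps2 departed in both knockouts, and Rpl23 in the Raptor knockout, under every alternative that was run. With each library left out in turn, Rps20, Rps2, Rpl23 and Rpl36a always departed in both knockouts. Rpl9, Rps3 and Rpl15 always did so in the double knockout alone, and Rpl3, Rpl39 and Rpl8 in neither.

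**Figure D3:**
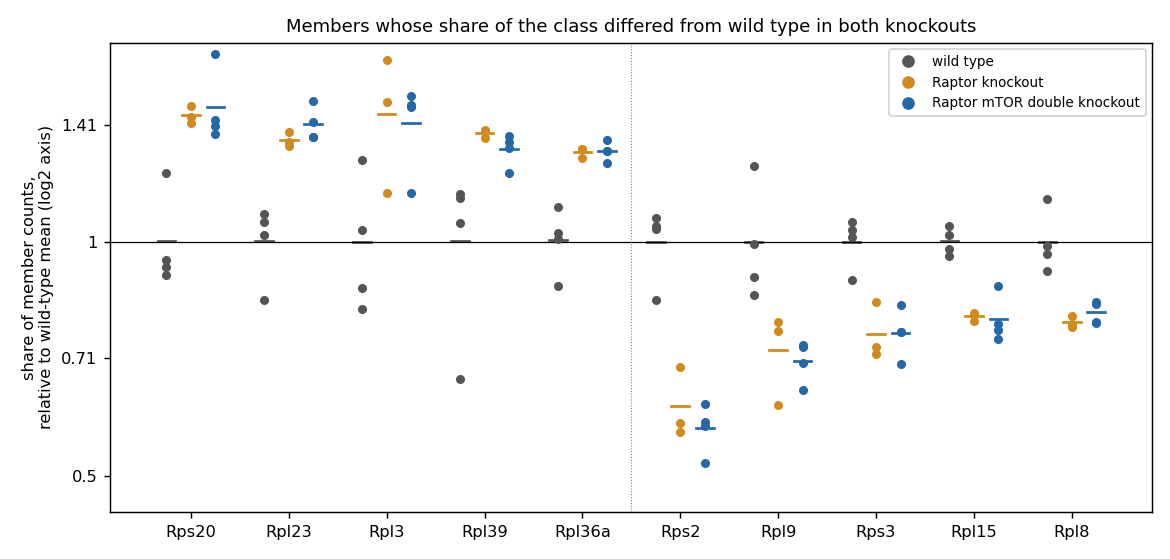
Share of all member counts held by each of 10 genes that departed from the class in both knockouts, divided by its mean share in wild type (log2 axis, points are libraries, bars are means over a genotype). Rps20 rose from a mean share of 1.69% to 2.46% (Raptor knockout) and 2.51% (double knockout), and Rps2 fell from 1.52% to 0.934% and 0.876%.

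Rps20, a protein of the 40S head, had the highest log2 fold change of all members in the double knockout. It was at 400, 391, 474 and 601 CPM in WT1 to WT4, at 1091, 1090 and 1090 in the Raptor knockout and at 1209, 1363, 1151 and 1526 in the double knockout. No libraries of different genotypes overlapped, and the log2 fold changes were 1.22 (SE 0.15, adjusted p = 6.56e-05, edgeR) and 1.49 (SE 0.15, adjusted p = 2.76e-06, edgeR). Relative to the class it was higher by 0.54 (adjusted p = 0.00418, edgeR) and 0.57 (adjusted p = 0.001, edgeR) on the log2 scale. The gene lies at chr4:3831334-3835665 on the minus strand in GRCm38. Rps28 and Rps7, both of the small subunit, departed upward in the double knockout, by 0.30 each (adjusted p = 0.0177 and 0.0159, edgeR), and in the Raptor knockout by 0.24 and 0.23, which did not pass.

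Rpl23, a large-subunit protein at the interface of the subunits that also binds MDM2, had the second highest log2 fold change in the double knockout. Its levels were 659, 650, 797 and 603 CPM in wild type, 1464, 1477 and 1506 in the Raptor knockout and 1838, 1922, 1778 and 1743 in the double knockout. The 3 genotypes were far apart here relative to their spread, with log2 fold changes of 1.13 (SE 0.12, adjusted p = 1.41e-05, edgeR) and 1.43 (SE 0.11, adjusted p = 4.24e-07, edgeR). Its share of the class rose from 2.47% ± 0.274 (SD, n = 4) in wild type to 3.34% ± 0.0687 (SD, n = 3) and 3.49% ± 0.180 (SD, n = 4), with no wild-type library in the range of the others. Rpl23 has only 3.33% of its counts in near-identical copies.

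Rpl3, which shapes the peptidyl transferase centre, rose from 26.6, 23.8, 36.0 and 43.3 CPM in wild type to 78.8, 58.5 and 90.9 in the Raptor knockout and 91.5, 77.2, 82.9 and 93.4 in the double knockout. Both knockouts lay above wild type, and the log2 fold changes were 1.22 (SE 0.20, adjusted p = 0.000514, edgeR) and 1.40 (SE 0.19, adjusted p = 4.88e-05, edgeR). Rpl3l, its paralog made in heart and skeletal muscle and named here after its values were seen, was at 322, 335, 305 and 413 CPM in wild type, 399, 319 and 378 in the Raptor knockout and 320, 328, 322 and 335 in the double knockout. The genotypes overlapped for Rpl3l, with log2 fold changes of 0.09 (SE 0.13, adjusted p = 0.686, edgeR) and -0.08 (SE 0.12, adjusted p = 0.679, edgeR), so that the paralog was not called while Rpl3 rose.

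Rpl39 and Rpl36a, together with Rps4x and Rpl10, are the members on the X chromosome. Rpl39, a small protein in the wall of the exit tunnel, was at 377, 327, 422 and 242 CPM in wild type, 770, 753 and 773 in the Raptor knockout and 861, 980, 801 and 796 in the double knockout (log2 1.16 and 1.33, SE 0.16 and 0.15). Rpl36a, a protein near the exit site for tRNA, was at 293, 283, 364 and 283 CPM in wild type, 651, 633 and 644 in the Raptor knockout and 732, 862, 689 and 752 in the double knockout (log2 1.07 and 1.31, SE 0.13 and 0.12). Both rose above the class in both knockouts, and no genotypes overlapped. The departure of Rpl36a held with each library left out in turn, whereas that of Rpl39 did not, in either knockout. Rps4x, a protein of the 40S body, followed the class, at 339, 331, 419 and 428 CPM in wild type, 597, 588 and 600 in the Raptor knockout and 754, 760, 679 and 729 in the double knockout (log2 0.65 and 0.94, SE 0.12 each). WT3, with Xist, had the highest level of Rpl39 and Rpl36a among wild type, and the Raptor knockout libraries, without Xist, lay above it in all 3 of these genes. WT3 lay above the other wild-type libraries in 32 of the 76 members, so this rank is not particular to X-linked genes. A link between Xist and these levels was not tested.

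Rps2, at the entry of the mRNA channel, was the member that moved least. It was at 413, 406, 473 and 373 CPM in wild type, 466, 385 and 393 in the Raptor knockout and 466, 539, 419 and 410 in the double knockout. All 3 genotypes overlapped, with log2 fold changes of -0.01 (SE 0.14, adjusted p = 0.985, edgeR) and 0.14 (SE 0.13, adjusted p = 0.446, edgeR), and the first lay between -0.10 and 0.19 over the alternatives run. Relative to the class it was lower by 0.70 (adjusted p = 0.000529, edgeR) and 0.80 (adjusted p = 3.93e-05, edgeR) on the log2 scale, the largest departure among the members that passed this test. The gene lies at chr17:24718116-24721929 on the plus strand in GRCm38, and 16.6% of its counts were in copies; with those added, its log2 fold changes were 0.06 (SE 0.13) and 0.20 (SE 0.12).

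Rps3, at the entry of the mRNA channel and also known for a role in DNA repair, was at 180, 178, 209 and 176 CPM in wild type, 253, 210 and 225 in the Raptor knockout and 271, 297, 268 and 245 in the double knockout. Its Raptor knockout libraries lay just above wild type (log2 0.31, SE 0.12, adjusted p = 0.0993, edgeR) and its double knockout libraries further above (log2 0.54, SE 0.12, adjusted p = 0.00233, edgeR). The large-subunit members Rpl15 and Rpl8 had the same form, with 353 to 449 and 202 to 278 CPM in wild type, 505 to 540 and 284 to 303 in the Raptor knockout, and 544 to 744 and 317 to 403 in the double knockout. Their log2 fold changes were 0.37 and 0.35 in the Raptor knockout, not called, and 0.60 (SE 0.13, adjusted p = 0.00221, edgeR) and 0.62 (SE 0.13, adjusted p = 0.00183, edgeR) in the double knockout. Rpl9, a further large-subunit protein, was at 116, 99.6, 113 and 162 CPM in wild type, 153, 119 and 159 in the Raptor knockout and 170, 188, 148 and 149 in the double knockout. WT4 lay above every Raptor knockout library and within the range of the double knockout, and neither change passed (log2 0.23, SE 0.17, and 0.42, SE 0.16); without WT4 both passed, at 0.39 and 0.58.

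Pseudogenes are a known difficulty for ribosomal protein genes, since the mouse genome holds many copies of their mRNAs. For 75 of the 76 members there were near-identical copies elsewhere in the annotation, 705 in all, of which 535 had a count and 670 are annotated as processed pseudogenes. In 10 members, listed here after their values were seen, over 50% of the counts of the family (the member and its copies) were assigned to the copies: Rpl10, Rpl12, Rps12, Rpl35, Rps27, Rpl31, Rpl17, Rpl27a, Rps23 and Rpl9. A read from such an mRNA can be assigned to either locus, so the level of the member alone is uncertain. With the copies added, 75 members were called higher in the double knockout and 67 in the Raptor knockout, where 13.0% and 8.69% of all genes were, and the medians were 0.89 and 0.68. Rps2 was then the member not called in the double knockout. The 19 members with at most 1% of their counts in copies gave a median log2 fold change of 0.60 (Raptor) and 0.85 (double knockout), and the 29 members with over 10% gave 0.77 and 1.04.

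Rpl10, a late-joining protein near the tRNA binding sites, had 111.7 counts in all libraries together, and 99.65% of its family counts were in copies, mainly Rpl10-ps3. Its own level was 4.35, 0.00, 0.327 and 0.00 CPM in wild type, 7.14, 0.539 and 5.55 in the Raptor knockout and 0.629, 1.07, 5.28 and 4.34 in the double knockout, with log2 fold changes of 1.86 and 1.24 whose SE of 1.14 each left them uncalled at this depth. The family of Rpl10 and its copies was at 493, 473, 585 and 562 CPM in wild type, 848, 713 and 841 in the Raptor knockout and 938, 1074, 806 and 891 in the double knockout. The family moved with the class, with log2 fold changes of 0.60 (SE 0.13, adjusted p = 0.00423, edgeR) and 0.81 (SE 0.12, adjusted p = 0.00013, edgeR).

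Rps27, a zinc-finger protein of the 40S subunit, was at 103, 104, 97.7 and 29.4 CPM in wild type, 160, 95.7 and 111 in the Raptor knockout and 75.2, 167, 99.5 and 73.5 in the double knockout. WT4 was low, and in that library 89.6% of the family counts were in copies, mainly Rps27rt, against 74.2% to 78.8% in WT1 to WT3. The family as a whole was at 410, 401, 460 and 282 CPM in wild type, 558, 481 and 507 in the Raptor knockout and 550, 607, 494 and 544 in the double knockout. Every knockout library then lay above wild type, with log2 fold changes of 0.41 (SE 0.15, adjusted p = 0.0675, edgeR) and 0.50 (SE 0.14, adjusted p = 0.0137, edgeR). Relative to the class the family was at -0.27 (adjusted p = 0.139, edgeR), which did not pass, and -0.41 (adjusted p = 0.0156, edgeR), whereas Rps27 alone passed in neither. Rpl21, a large-subunit member, gave a wide error on its own, at 181 to 361 CPM in wild type, 629 to 710 in the Raptor knockout and 404 to 904 in the double knockout (log2 1.32, SE 0.32, and 1.23, SE 0.30). With its copies it was at 429 to 524, 841 to 904 and 962 to 1141 CPM, and its log2 fold changes were 0.87 (SE 0.12) and 1.10 (SE 0.11), near those of the class.

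**Figure D4:**
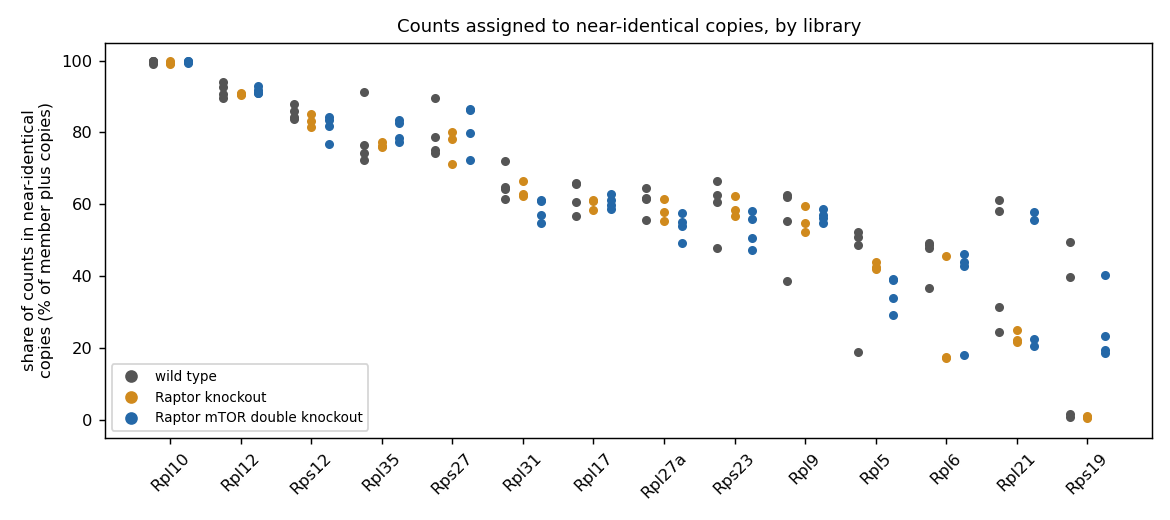
Percent of the counts of a member and its near-identical copies that were assigned to the copies, in each library (points, coloured by genotype), for the 10 members with over 50% in copies and for Rpl5, Rpl6, Rpl21 and Rps19. For Rpl6, Rpl21 and Rps19 libraries of a genotype fall apart; Rps19 ranges from 0.568% in KO3 to 49.4% in WT4.

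The direct comparison of the double knockout with the Raptor knockout sets a label of Raptor and mTOR deletion against one of Raptor deletion alone. The groups also differ in other ways: 3 of 4 double knockout and 0 of 3 Raptor knockout libraries had Xist, DKO3 and DKO4 came from the smaller run, and the Mtor tag was higher in the double knockout. All double knockout libraries were in the higher title series and all Raptor knockout libraries in the lower. Against the wild-type mean, the members' median log2 level was -0.08 and -0.16 in WT1 and WT2 (lower series) and 0.11 and 0.12 in WT3 and WT4 (higher series). Genotype and title series cannot be told apart in this comparison. No member was called by the edgeR quasi-likelihood test over all 3 genotypes, where 0.0286% of all genes were called either way, nor by DESeq2, where 0.838% were; 19 members had an unadjusted p under 0.05, as did 9.5% of all genes. The differences leaned upward: the median log2 fold change was 0.24, against 0.01 over all tested genes, and 70 of 76 members were above 0, as were 51.1% of all genes. The median was 0.31 without the smaller run, 0.22 among the libraries without Xist and 0.19 with Xist as a covariate. In 47 members every double knockout library lay above every Raptor knockout library, as was so for 5.18% of all genes. The median was 0.22 for the large and 0.25 for the small subunit, and the summed level of the class was 1.18 times that of the Raptor knockout. No member departed from the class in this comparison, in which 0.143% of all genes did. With only these 2 genotypes in the fit, 4 members were called higher, where 0.588% of all genes were, named here after their values were seen: Rps23, Rpl31, Rpl27a and Rpl5 (log2 0.42 to 0.51, adjusted p of 0.0272 to 0.0498, edgeR). These 4 have 39.21% to 61.79% of their family counts in copies, and with the copies added no member was called, where 0.00962% of all genes were called higher, and the changes of all 76 families lay between -0.03 and 0.42.

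Genes outside the rule that share the pathway were taken from fixed lists. Beside their counts, 13.0% of all tested genes rose in the double knockout and 8.73% in the Raptor knockout. Of 4 ribosomal proteins that the symbol rule leaves out, all were called higher in the double knockout and 3 in the Raptor knockout. Among them Rack1, a scaffold on the 40S head, was at 280 ± 27.9 CPM (SD, n = 4) in wild type, 425 ± 2.19 (SD, n = 3) and 527 ± 30.7 (SD, n = 4). Fau, which encodes a small-subunit protein fused to a ubiquitin-like protein, had log2 fold changes of 0.40 in the Raptor knockout and 0.66 (SE 0.12) in double knockouts. Of 18 other genes with known TOP mRNAs, 14 rose in the double knockout and 11 in the Raptor knockout, none fell, and the medians were 0.64 and 0.54. Eef1a1, an elongation factor, was at 209, 201, 242 and 165 CPM in wild type, 865, 913 and 793 in the Raptor knockout and 975, 1120, 962 and 806 in the double knockout, a log2 fold change of 2.07 (SE 0.15) and 2.24 (SE 0.14). The splicing factor Hnrnpa1 (1.40 and 1.52) and the elongation factor Eef2 (0.72 and 0.99) rose in both knockouts too.

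Ribosome biogenesis genes moved less: of 43, 12 rose and 1 fell in the double knockout and 6 rose in the Raptor knockout, with medians of 0.18 and 0.14. Of all tested genes, 13.0% rose and 13.7% fell in the double knockout, and 8.73% rose and 9.42% fell in the Raptor knockout. The nucleolar proteins Ncl (log2 0.99, adjusted p = 5.2e-05, edgeR) and Npm1 (0.80, adjusted p = 0.000747, edgeR) and the rRNA processing factor Las1l (0.74, adjusted p = 0.00239, edgeR) had the smallest adjusted p-values in the double knockout. Mitochondrial ribosomal proteins, the parts of the separate ribosome of mitochondria, were spread around 0. Of 77 tested, 5 rose and 4 fell in the double knockout and 5 rose and 1 fell in the Raptor knockout, with medians of 0.02 and 0.08. Mrps2 (0.96) and Mrpl33 (0.45) rose and Mrpl36 (log2 -0.90) fell in the double knockout. Among 5 tested paralogs of the members, 1 passed, Rpl7l1, with a log2 fold change of 0.57 (SE 0.14, adjusted p = 0.00595, edgeR) in the double knockout.

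A list of 18 genes of mTORC1, its S6 kinase and 4E-BP branches and regulators such as Tsc1 was mixed. In the double knockout 6 fell, Mtor rose and 11 were not called, where 13.7% of all tested genes fell. In the Raptor knockout 7 fell and 11 were not called, where 9.42% of all tested genes fell. The medians were -0.25 in the double knockout and -0.44 in the Raptor knockout. Larp1, the repressor that binds TOP mRNAs, was at 217, 228, 241 and 208 CPM in wild type, 139, 152 and 140 in the Raptor knockout and 137, 125, 133 and 139 in the double knockout. Its log2 fold changes were -0.64 (SE 0.12, adjusted p = 0.00128, edgeR) and -0.74 (SE 0.11, adjusted p = 9.23e-05, edgeR), and every knockout library lay below every wild-type library. Tsc1, which restrains mTORC1, changed by -0.89 and -0.91, and Eef2k, the kinase that inactivates the elongation factor Eef2, by -0.70 and -0.92 on the log2 scale, each called in both knockouts. The mRNA level of these genes gives no measure of the activity of the pathway or of translation.

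**Figure D5:**
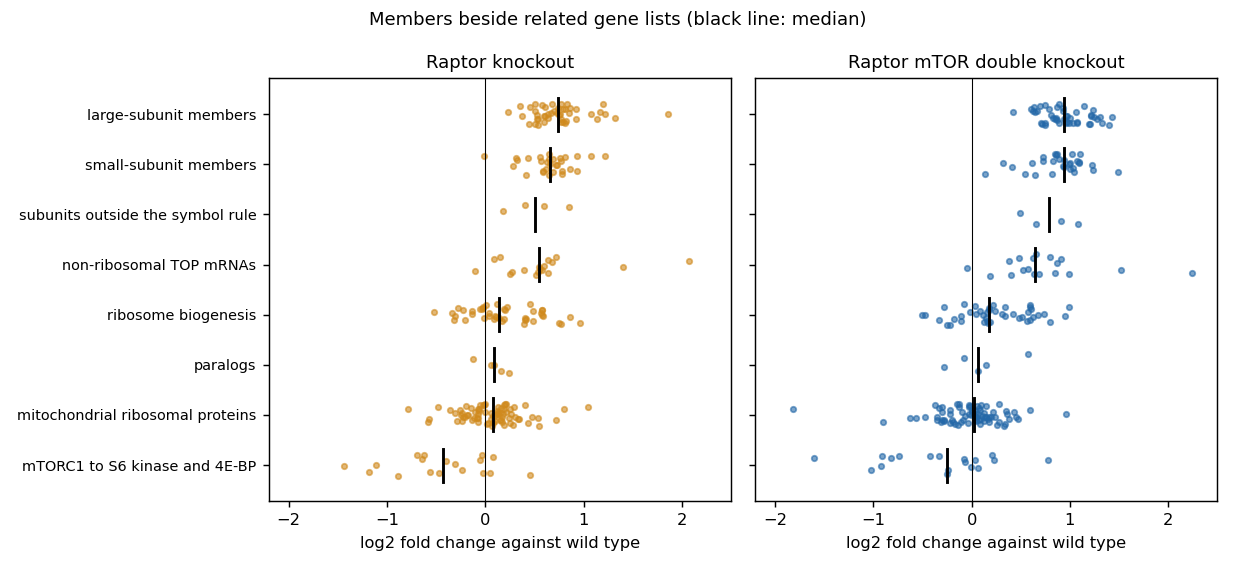
Log2 fold change against wild type of the members of each subunit and of the genes on related lists, in the Raptor knockout (left) and the double knockout (right); each point is a gene and the black line the median of its list. The members have medians of 0.74 and 0.65 (large and small subunit) and 0.94 and 0.94, mitochondrial ribosomal proteins 0.08 and 0.02, and the mTORC1 list -0.44 and -0.25.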

How the data were processed

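QuantSeq 3′ mRNA libraries were made from 450 ng of total RNA, per the labels' protocols. The submitters' processing notes name fastp 0.20.0, STAR 2.7.0, RSEM 1.3.3 and the builds GRCm38 and mm10; the annotation release and strand setting are not given in the sources used here. The authors deposited expected counts per gene for each sequencing run, and a table of TPM values. The expected counts of the 2 runs were joined and rounded to whole numbers; 93.3% of the members' values were not whole, since the authors' estimates divide reads between similar loci. Of the deposited columns, 6 match no sample label and were not used. CPM are TMM-scaled. edgeR 4.0.16 (quasi-likelihood, R 4.3.3) was fitted on all 11 libraries and the 10505 genes that passed filterByExpr, two-sided, with Benjamini-Hochberg adjustment over all tested genes and a threshold of 0.05. To find departures, the summed member count replaced the library size. The script was tested on simulated data. Alternatives were DESeq2 1.42.0, limma 3.58.1 on log2 of the deposited TPM (pseudocount 1 or 0.1, mean TPM of at least 1), other scalings, no filter, run or Xist covariates, copies added and each library left out.

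Near-identical copies were found with BLAST 2.17.0 as genes whose last 200 bases of a transcript (GENCODE M21) were at least 95% identical over at least 90% of their length; this search was set, and widened, after the data were seen, as were the start-site window and tract lengths. The members and gene lists were chosen with earlier results of these data known. Named members were the 4 highest and 4 lowest by log2 fold change per comparison with wild type, uncalled members where at most 6, up to 6 departing members in each direction, Rps6, Rpl5, Rpl11, the stalk and the X-linked members; from other lists, up to 3 with the smallest adjusted p. Start sites are from RefSeq (GRCm38.p6). Of the gene IDs, 260 had no match in GENCODE M21. Results for some genes are not reported here.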

Additional observations from a re-analysis of the deposited data

Results flagged for a closer look

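Levels of the named members, the summed class and the ratio of the subunits were checked for a library far from the others in the groups of 4, 52 groups in all. In 5 of them the gap to the nearest library, divided by the range of the group, exceeded Dixon's 95% critical value for 4 samples. Chance alone gives about 1 in 20. Rpl10 was at 4.35 CPM in WT1, with the other wild-type libraries at 0.00 to 0.327, on a total of 111.7 counts. Rps27 was at 29.4 CPM in WT4, against 97.7 to 104 in the others. Rpl36a was at 364 CPM and Rps3 at 209 CPM in WT3, above the others at 283 to 293 and 176 to 180. Rplp1 was at 1629 CPM in DKO2, against 1407 to 1433 in the other double knockout libraries.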

How the results depend on the processing

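Under no alternative was a member called lower than wild type. Scaling by library totals moved the median of all tested genes to 0.24 (double knockout) and 0.20 (Raptor knockout), and their calls from 13.0% higher and 13.7% lower to 23.0% and 8.06%, and from 8.73% and 9.42% to 15.6% and 5.48%; the members' medians became 1.17 and 0.89. On TPM with a pseudocount of 1 that median was 0.14 and 0.09. The double knockout had 72 called members, and 47 among the libraries without Xist, where its lone library was assumed to vary like the other groups; leaving out each library gave 71 to 73. In the Raptor knockout leaving out each library gave 55 to 71. Of the called members, 46 of 72 and 51 of 65 passed under every alternative. Between the knockouts, with only these 2 groups in the fit, 4 members were called and 1, Rps19, departed from the class (none over 3 groups).

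The number departing from the class was less stable. In the double knockout it was 9 without the filter, 10 with the run as covariate, 7 without the smaller run, 3 without Xist libraries, and 12 to 29 leaving out each library, the highest without WT4; 11 of 18 departed without each library in turn. In the Raptor knockout it was 7 without the filter, 8 with only the 2 groups compared, 9 without Xist libraries and 6 to 17 leaving out each library, lowest without KO3; 5 of 14 departed without each library in turn. The cause was not tested.

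The large-to-small ratio on the deposited TPM was 1.34 for wild type and 1.38 for each knockout; with copies added it was 1.44, 1.49 (Raptor) and 1.48 (double knockout). Leaving out each library gave 1.42 to 1.45, 1.46 to 1.48 and 1.44 to 1.46.

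The following values changed sign, none of them called. Rpl10 in the double knockout was at -0.45 with the run as covariate and without the smaller run. Rpl9 in the Raptor knockout was at -0.01 with an mt-Rnr2 covariate, an alternative chosen after seeing the data, as was adding all copies. Rps27 in the double knockout was at -0.11 in libraries without Xist and -0.01 to 0.46 leaving out each library. Rps2 in the Raptor knockout was at 0.19 with library totals, 0.09 on TPM with both pseudocounts, 0.05 with named pseudogenes added and with an Xist covariate, 0.03 without Xist libraries, 0.06 with copies added, 0.00 with TMM without the members and with only the 2 groups compared, and -0.10 to 0.04 leaving out each library. Rpl3l in the double knockout was at 0.16 with library totals, 0.09 on TPM with both pseudocounts, 0.01 with an Xist covariate and -0.15 to 0.02 leaving out each library, and in the Raptor knockout at -0.04 with the mt-Rnr2 covariate and -0.01 to 0.19 leaving out each library. Mtor in the Raptor knockout was at 0.18 with library totals and -0.13 to 0.15 leaving out each library. No paired analysis was made, since the replicate numbers follow accession order and pair no libraries. The title series group libraries without pairing them, and no comparison was made within a series.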

Other observations

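For some members the split between the gene and its copies divided libraries of a genotype; Rps19, Rpl21 and Rpl6 are named here after their values were seen. For Rps19, a 40S head protein that is the gene most often mutated in Diamond-Blackfan anaemia, copies (mainly Gm45660) held 1.61% and 0.676% of the family counts in WT1 and WT2 and 0.568% to 1.11% in the Raptor knockout, but 39.8% and 49.4% in WT3 and WT4 and 18.5% to 40.4% in the double knockout. The low shares were those of the lower title series (KO1 to KO3, WT1 and WT2) and the high shares those of the higher (DKO1 to DKO4, WT3 and WT4). The shares of Rpl21 and Rpl6, given below, did not follow the series. Rps19 alone was at 232, 220, 161 and 131 CPM in wild type, 410, 366 and 392 in the Raptor knockout and 274, 417, 329 and 362 in the double knockout. With the copies it was at 235, 221, 267 and 259, 414, 370 and 394, and 460, 545, 404 and 449 CPM. The log2 difference between double and Raptor knockout was -0.17 for the gene and 0.24 for the family, the latter equal to the median of the members.

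For Rpl21 the copies held 55.6% to 61.2% in WT3, WT4, DKO1 and DKO3 and 20.6% to 31.3% in the other libraries. For Rpl6 they held 17.1% to 18.1% in KO1, KO3 and DKO2 and 36.6% to 49.1% in the others. The 4 libraries high for Rpl21 were also among those with the higher shares for Rps19 and Rpl6, whereas WT1 and WT2 were high for Rpl6 and low for Rps19. What sets these shares was not tested.

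Across the 76 members, the log2 fold change against wild type had a Spearman rank correlation of 0.29 in the double knockout and 0.31 in the Raptor knockout with the percentage of family counts in copies, of -0.11 and -0.20 with the wild-type level, and of 0.07 and 0.05 with transcript length. These are descriptions over members that share their libraries.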
